A study of Mus musculus with 18 samples.

Results

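Plaa and 6 other genes of the VCP ubiquitin system were followed across oocytes, cumulus cells (the somatic cells around the oocyte) and blastocysts (embryos before implantation) of C57BL/6 mice. The 7 members, Plaa, Vcp, Nploc4, Nsfl1c, Ubxn6, Ube4b and Yod1, were taken by symbol, and each matched 1 of the 52550 rows of the table. Plaa was selected on its measured values over all 6 groups, because its deposited level was lower under exposure in cumulus cells only. The lack of such a fall in oocytes and blastocysts was part of that choice. Every value of Plaa is therefore given as a description without a test. The other 6 members were chosen by their known work with VCP, but with earlier results of these data known. For each tissue there was a PM2.5 exposure group (fine particulate matter) and a filtered-air group, with 3 libraries in each of the 6 groups and 18 in all. No mutation or transgene is named in the labels, and age, dose and length of exposure are not stated there. Whether libraries of 1 group stem from different animals, and the number of cells in each, is not stated, so the p-values reflect only how these libraries vary, and that variation may be technical.

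VCP (also called p97) is an ATPase that pulls ubiquitin-tagged proteins out of membranes, ribosomes and complexes, after which they are degraded or reused. It has little choice of substrate on its own and is steered by cofactors. Nploc4 (NPL4), with its partner Ufd1, binds ubiquitin chains and feeds the substrate into the VCP pore, for example in degradation of proteins of the endoplasmic reticulum (ERAD). Nsfl1c (p47) guides VCP in the fusion of Golgi and endoplasmic reticulum membranes. Ube4b is an E4 ligase that lengthens ubiquitin chains and binds VCP. Plaa (phospholipase A2-activating protein) binds both ubiquitin and VCP, and in budding yeast the loss of its counterpart, Doa1, lowers the pool of free ubiquitin. In human cells PLAA, UBXD1 (the product of the counterpart of Ubxn6) and the deubiquitinase YOD1 act with VCP in the clearance of damaged lysosomes.

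The windows around the transcription starts are shown because the members fell into genes listed higher in oocytes (Plaa and Ube4b) and genes listed lower there (such as Vcp and Nsfl1c), and the reader can compare the letters of both kinds. RefSeq sequences on GRCm38.p6, the same build as mm10, were found for 7 of the 7 members, as 9 windows of 300 bases each that run from 250 bases before the start to 50 after it. Capitals mark matches, on either strand, to the CCAAT box (CCAAT), the GC box (GGGCGG), the core of the site read by the aryl hydrocarbon receptor (GCGTG) and the E-box (CACGTG). Each sequence reads 5′ to 3′ on the strand of its gene.
Plaa, chr4:94603198-94603497, minus strand: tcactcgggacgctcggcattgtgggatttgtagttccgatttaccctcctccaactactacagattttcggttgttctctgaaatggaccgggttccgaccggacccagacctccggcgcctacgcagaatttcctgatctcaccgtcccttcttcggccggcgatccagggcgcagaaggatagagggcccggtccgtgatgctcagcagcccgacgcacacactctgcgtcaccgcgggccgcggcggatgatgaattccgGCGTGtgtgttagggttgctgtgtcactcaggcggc
Ube4b, chr4:149426582-149426881, minus strand: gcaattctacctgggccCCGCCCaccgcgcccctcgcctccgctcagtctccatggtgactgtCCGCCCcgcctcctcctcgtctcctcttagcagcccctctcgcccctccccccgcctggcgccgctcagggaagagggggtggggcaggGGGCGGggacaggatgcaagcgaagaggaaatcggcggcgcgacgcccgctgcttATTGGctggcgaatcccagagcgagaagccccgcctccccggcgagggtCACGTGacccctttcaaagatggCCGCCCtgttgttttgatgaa
Vcp, chr4:43000458-43000757, minus strand: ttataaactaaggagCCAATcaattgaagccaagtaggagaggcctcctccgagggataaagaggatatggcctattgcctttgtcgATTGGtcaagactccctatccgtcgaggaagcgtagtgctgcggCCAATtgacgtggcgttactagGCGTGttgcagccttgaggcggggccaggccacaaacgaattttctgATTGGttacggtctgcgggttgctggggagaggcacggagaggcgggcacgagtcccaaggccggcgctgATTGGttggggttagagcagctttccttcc
Nsfl1c, chr2:151493932-151494231, plus strand: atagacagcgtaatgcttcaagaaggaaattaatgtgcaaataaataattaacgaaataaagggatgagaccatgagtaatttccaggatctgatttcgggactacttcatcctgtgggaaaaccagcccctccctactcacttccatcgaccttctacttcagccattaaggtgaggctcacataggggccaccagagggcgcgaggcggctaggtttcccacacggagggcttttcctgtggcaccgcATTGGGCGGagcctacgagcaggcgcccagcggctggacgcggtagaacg

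The Plaa window was 60.3% G and C with 29 CpG sites, and the Ube4b window was 68.3% with 27. The Vcp window was 55.7% with 18 CpG sites and the Nsfl1c window 52.3% with 16, against medians of 52.7% and 7 CpG sites over 32851 windows of the same length. The other genes listed lower in oocytes had more G and C, with 62% and 28 CpG sites for Nploc4, 62.3% and 24 for Yod1, and 59.3% to 64.3% and 18 to 23 for the 3 windows of Ubxn6. Base content thus did not separate the genes listed higher in oocytes from those listed lower. The Plaa window held 1 GCGTG, which begins 14 bases after the start, and no CCAAT or GGGCGG. It also held 1 antioxidant response core (TGACNNNGC), as did the Vcp window, a motif present in 12.4% of all windows. The Ube4b window held 4 GC boxes, 1 CCAAT and 1 extended E-box (TCACGTGA), which contains the CACGTG in capitals. The same extended E-box was in 1 of the 3 windows of Ubxn6, a gene listed lower in oocytes, and those windows held 5, 1 and 3 GC boxes. In the Vcp window CCAAT occurred 5 times and GCGTG once, and in the Nsfl1c window 1 CCAAT overlapped 1 GC box at the start. Among all windows CCAAT was present in 37.4%, GGGCGG in 35.7%, GCGTG in 32.4%, CACGTG in 7.15% and TCACGTGA in 0.974%. The motifs were chosen after the sequences had been seen, and a match is a string of letters and not a shown binding site.

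The deposited values are log2(x + 1), where x is what the authors call a normalized count. Whether x was divided by gene length is not stated, so levels are compared between samples for 1 gene at a time and never between genes. Each library listed between 16426 and 17987 genes above 0, and read totals were not used. The labelled tissues carried most of their defining markers, with a mean log2 value of 9.92 to 10.36 for 5 oocyte markers in oocytes, 4.94 to 5.28 for 6 granulosa markers in cumulus cells and 7.07 to 7.48 for 6 blastocyst markers in blastocysts. The granulosa marker Amh was at 0 in 4 of the 6 cumulus libraries. In such bulk samples fewer cells of a type and less RNA per cell cannot be told apart.

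Plaa was listed highest in oocytes and, in the PM2.5 group, lowest in cumulus cells. Its log2 values in oocytes were 6.61, 6.58 and 6.45 in the PM2.5 group and 6.48, 6.44 and 6.42 in filtered air. In cumulus cells they were 3.11, 2.85 and 2.76 in the PM2.5 group and 4.76, 4.91 and 5.15 in filtered air. In blastocysts they were 4.74, 5.79 and 5.45 in the PM2.5 group and 4.76, 5.08 and 5.45 in filtered air. The 6 oocyte libraries therefore stood above the other 12, and the 3 exposed cumulus libraries stood below the other 15. In filtered air the cumulus and blastocyst libraries overlapped, and the order of those 2 tissues is not larger than their spread.

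As group means, Plaa was at 6.54 ± 0.09 (SD, n = 3) in exposed and 6.44 ± 0.03 (SD, n = 3) in control oocytes. In cumulus cells it was at 2.91 ± 0.18 (SD, n = 3) and 4.94 ± 0.20 (SD, n = 3), and in blastocysts at 5.33 ± 0.53 (SD, n = 3) and 5.10 ± 0.35 (SD, n = 3). The exposure difference (PM2.5 minus filtered air) was -2.03 (SE 0.16) in cumulus cells, 0.10 (SE 0.09) in oocytes and 0.23 (SE 0.28) in blastocysts. Back on the linear scale, the mean of x in cumulus cells was 6.55 in the PM2.5 group and 29.9 in filtered air, 4.56-fold lower. Without any 1 cumulus library the difference lay between -2.13 and -1.92. The blastocyst difference was -0.00 without PM2.5 replicate 2 and 0.52 without PM2.5 replicate 1, so those libraries set its size. In a fit of all 18 libraries the cumulus difference minus the oocyte difference was -2.13 (SE 0.31), and the cumulus difference minus the blastocyst difference was -2.26 (SE 0.30), again as a description.

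**Figure D1:**
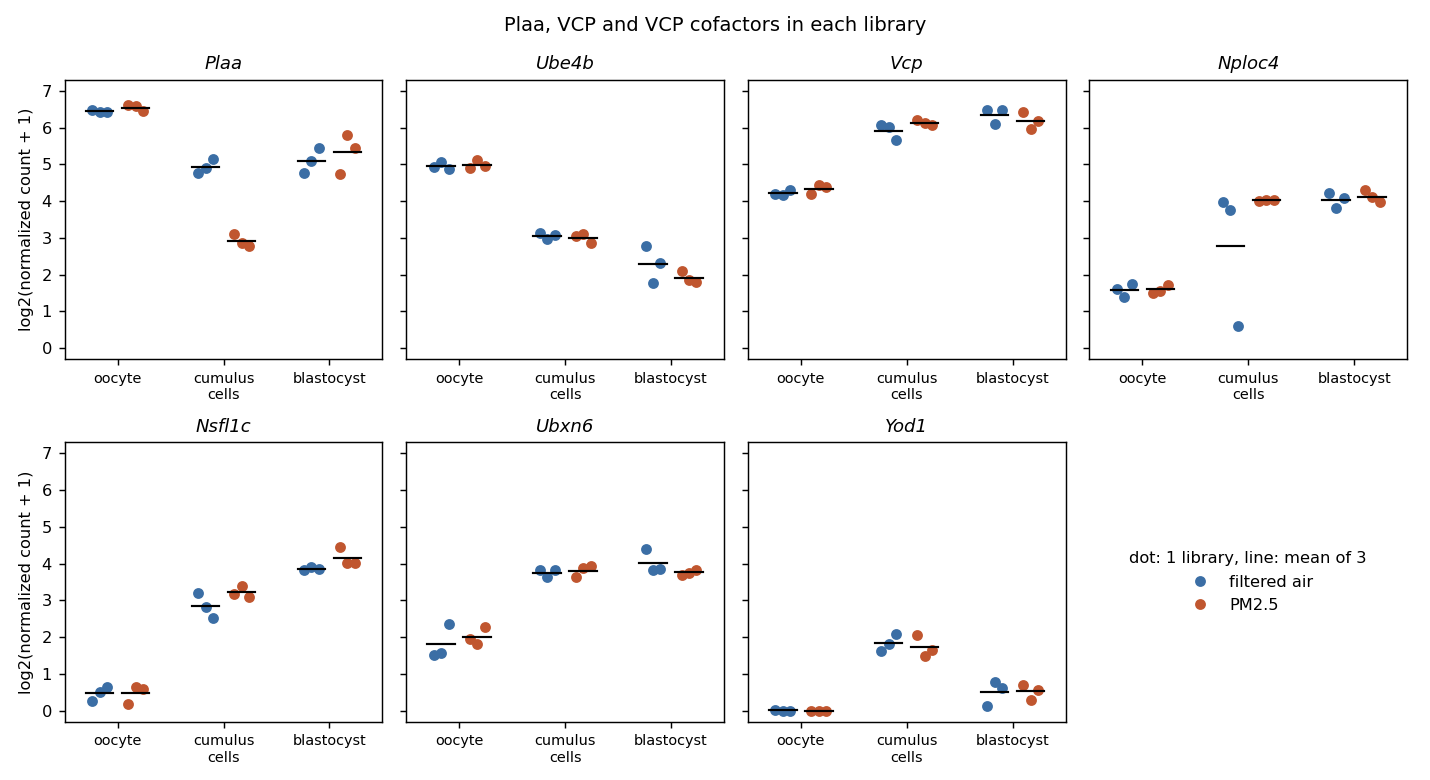
Deposited log2(x + 1) values of the 7 members in each of the 18 libraries, with 1 point per library and a bar at the group mean, by tissue and exposure group. Plaa sits at 2.76 to 3.11 in the exposed cumulus libraries and at 4.76 to 5.15 in those of filtered air, and Nploc4 has 1 filtered-air cumulus library at 0.59.

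Vcp itself, the ATPase, was lower in oocytes than in cumulus cells or blastocysts. Its log2 values in oocytes were 4.20, 4.43 and 4.37 in the PM2.5 group and 4.20, 4.16 and 4.29 in filtered air. In cumulus cells they were 6.20, 6.13 and 6.06 (PM2.5) and 6.06, 6.01 and 5.66 (filtered air), and in blastocysts 6.43, 5.97 and 6.17 (PM2.5) and 6.48, 6.11 and 6.46 (filtered air). No oocyte library reached the lowest cumulus or blastocyst library. In filtered air the oocyte level was 1.69 log2 units below cumulus cells (difference -1.69, SE 0.15, limma adjusted p = 1.18e-06) and 2.14 below blastocysts (-2.14, adjusted p = 1.48e-07). The same contrasts in the PM2.5 libraries, which share no library with the filtered-air fit, were -1.79 (limma adjusted p = 1.98e-07) and -1.85 (adjusted p = 1.41e-07). Cumulus cells were below blastocysts in filtered air (-0.44, limma adjusted p = 0.0242), but that call was lost without cumulus filtered-air replicate 3 (adjusted p = 0.0985), without blastocyst filtered-air replicate 1 (0.0735) or 3 (0.0753), and in the PM2.5 libraries the difference was -0.06 (adjusted p = 0.720).

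Nploc4, the ubiquitin-chain receptor that pairs with Ufd1, had log2 values in oocytes of 1.5, 1.56 and 1.72 in the PM2.5 group and 1.60, 1.39 and 1.74 in filtered air. In cumulus cells it was at 4.0, 4.02 and 4.03 in the PM2.5 group and at 3.98, 3.76 and 0.59 in filtered air. In blastocysts it was at 4.29, 4.10 and 3.97 (PM2.5) and 4.21, 3.80 and 4.07 (filtered air). Filtered-air cumulus replicate 3, at 0.59, stood apart from the other 11 cumulus and blastocyst libraries and below every oocyte library. In the PM2.5 libraries Nploc4 was lower in oocytes than in cumulus cells (-2.42, SE 0.15, limma adjusted p = 1.91e-08) and than in blastocysts (-2.53, SE 0.15, adjusted p = 1.25e-08), and cumulus cells and blastocysts differed by -0.10 (adjusted p = 0.576). In filtered air its mean over the 9 libraries was below the filter, and the oocyte differences of -1.20 and -2.45 were not tested. The PM2.5 oocyte mean of Nploc4, 1.59, was also below the filter of 3. In PM2.5 it was therefore tested only through the tissues where it is high.

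Nsfl1c, the membrane-fusion cofactor p47, was nearly unlisted in oocytes, at 0.18, 0.63 and 0.60 in the PM2.5 group and 0.27, 0.50 and 0.65 in filtered air. It was at 3.17, 3.39 and 3.11 (PM2.5) and 3.20, 2.81 and 2.52 (filtered air) in cumulus cells. In blastocysts it reached 4.46, 4.01 and 4.01 (PM2.5) and 3.83, 3.91 and 3.84 (filtered air). The 3 tissues did not overlap in either air. The oocyte minus cumulus differences were -2.37 in filtered air and -2.75 in the PM2.5 group, and the cumulus minus blastocyst differences were -1.02 and -0.94, none of them tested because the mean lay below the filter.

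Ubxn6 (UBXD1), a cofactor known from endosome and lysosome sorting, ran with Vcp. It was at 1.94, 1.82 and 2.28 in exposed and 1.53, 1.57 and 2.36 in control oocytes, at 3.63, 3.89 and 3.93 in exposed and 3.82, 3.63 and 3.83 in control cumulus cells, and at 3.70, 3.74 and 3.84 in exposed and 4.40, 3.82 and 3.86 in control blastocysts. The highest oocyte library was below the lowest cumulus and blastocyst library. In filtered air oocytes were lower than cumulus cells (-1.94, SE 0.25, limma adjusted p = 2.08e-05) and than blastocysts (-2.21, adjusted p = 6.72e-06), and in the PM2.5 libraries by -1.80 (adjusted p = 9.87e-07) and -1.75 (adjusted p = 1.27e-06). Cumulus cells and blastocysts did not pass the test in either air (-0.27, limma adjusted p = 0.353, and 0.05, adjusted p = 0.798). The oocyte means of Ubxn6, 1.82 in filtered air and 2.01 in PM2.5, lay below the filter of 3. It was tested only through the tissues where it is high.

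Ube4b, the chain-lengthening ligase, had the reverse order. It was at 4.91, 5.11 and 4.95 in exposed and 4.94, 5.07 and 4.86 in control oocytes. It was at 3.04, 3.10 and 2.86 in exposed and 3.13, 2.96 and 3.07 in control cumulus cells, and at 2.08, 1.86 and 1.80 in exposed and 2.77, 1.77 and 2.32 in control blastocysts. The tissues were fully apart, with oocytes highest and blastocysts lowest. In filtered air oocytes were above cumulus cells by 1.90 (SE 0.23, limma adjusted p = 1.28e-05) and above blastocysts by 2.67 (adjusted p = 6.6e-07), and cumulus cells were above blastocysts by 0.77 (adjusted p = 0.0117). In the PM2.5 libraries these differences were 1.99 (limma adjusted p = 1.54e-07), 3.08 (adjusted p = 2.54e-09) and 1.09 (adjusted p = 9.24e-05). The blastocyst means of Ube4b, 2.29 in filtered air and 1.91 in PM2.5, lay below the filter of 3. It was tested only through the tissues where it is high.

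Yod1, the deubiquitinase, was listed at 0 in 5 of the 6 oocyte libraries and at 0.03 in filtered-air replicate 1. It was at 2.06, 1.49 and 1.65 in exposed and 1.62, 1.81 and 2.10 in control cumulus cells. In blastocysts it was at 0.70, 0.30 and 0.57 (PM2.5) and 0.14, 0.78 and 0.61 (filtered air). The cumulus libraries stood above all others, and as it never passed the filter it was not tested.

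Of the 6 members other than Plaa, 3 were tested between oocytes and cumulus cells in filtered air, and 3 of 3 passed, with Ube4b higher in oocytes and Vcp and Ubxn6 lower. Between these tissues 87.1% of the 4035 genes tested passed, 35.6% higher and 51.5% lower, so a pass alone sets a member apart from few genes. For oocytes against blastocysts the same 3 of 3 passed in the same directions (background 87.8%, of which 33.2% higher and 54.6% lower). For cumulus cells against blastocysts 2 of 3 passed, Ube4b higher and Vcp lower (68.4%, of which 26.2% higher and 42.2% lower). In the PM2.5 libraries Ube4b was higher and Vcp, Nploc4 and Ubxn6 were lower in oocytes than in cumulus cells, 4 of 4 tested (87.9%, of which 35% higher and 52.9% lower). Against blastocysts the same 4 of 4 passed (88%, of which 31.9% higher and 56.1% lower), and between cumulus cells and blastocysts 1 of 4, Ube4b, higher (66.9%, of which 28.4% higher and 38.5% lower). Vcp lay above 3, the lowest mean that was tested, in every group. Ubxn6 and Nploc4 lay below 3 in oocytes. Ube4b lay below 3 in blastocysts and just below it (2.99992) in exposed cumulus cells. These genes passed the filter only through the tissues where they are high. Such genes had to differ, so the counts above support nothing by themselves. Without a filter, filtered-air oocytes against cumulus cells gave limma adjusted p-values of 2e-05 for Vcp, 0.000268 for Ubxn6 and 0.000163 for Ube4b, with 48.7% of 27380 genes called. In the PM2.5 libraries the same fit gave 3.64e-07 for Nploc4, with 49.4% of 27574 genes called. These p-values were kept only for members that had also passed the filter, which leaves out Nsfl1c, Yod1 and filtered-air Nploc4. They therefore do not lift that limit. The members' sizes can be read against the median of all genes tested, which was -0.56 for oocytes minus cumulus cells, -0.85 for oocytes minus blastocysts and -0.28 for cumulus cells minus blastocysts in filtered air. Quantile normalization moved these medians to -0.35, -0.44 and -0.07, and it left the direction of all oocyte differences of the tested members in place. The contrasts of 1 air share groups with each other and with the exposure comparisons. Plaa, without a test, was 1.5 above cumulus cells and 1.35 above blastocysts in filtered-air oocytes, on the side of Ube4b.

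**Figure D2:**
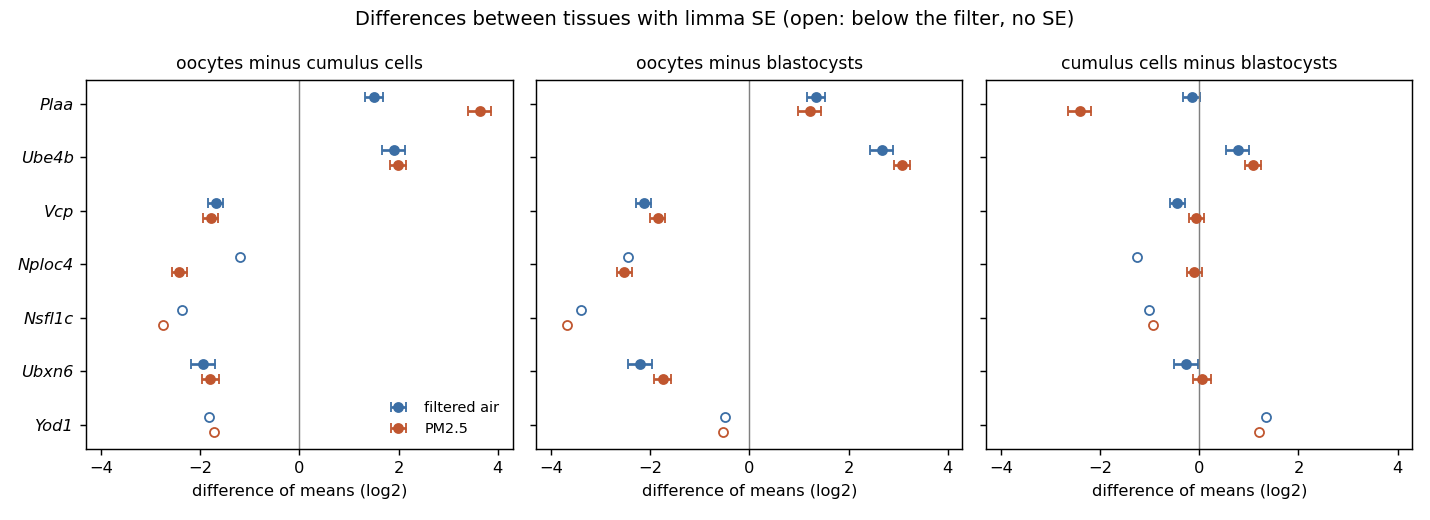
Differences of mean log2(x + 1) between tissues for each member, separately for the filtered-air and the PM2.5 libraries, with bars of 1 SE from the limma fit and open points for members below the filter. Ube4b lies above 0 in the oocyte contrasts (1.90 and 2.67 in filtered air) and Vcp below (-1.69 and -2.14), and Plaa is shown as a description.

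Between exposure groups none of the tested members passed. In cumulus cells 5 members other than Plaa were tested and 0 passed, with 0 at an unadjusted limma p under 0.05. Of all 4780 genes tested 0.167% were called, and 1114 had an unadjusted p under 0.05. Vcp differed by 0.22 (SE 0.14, 95% interval -0.12 to 0.55, limma adjusted p = 0.350), Nsfl1c by 0.38 (SE 0.20, interval -0.10 to 0.85, adjusted p = 0.272), Ubxn6 by 0.06 (SE 0.15, interval -0.29 to 0.40, adjusted p = 0.817) and Ube4b by -0.06 (SE 0.15, interval -0.40 to 0.29, adjusted p = 0.816). Nploc4 differed by 1.24 (SE 0.80, interval -0.62 to 3.11, limma adjusted p = 0.338), and without filtered-air replicate 3 by 0.15 (adjusted p = 0.620). Yod1, untested, differed by -0.11.

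The exposed cumulus libraries lay below the controls without overlap for Plaa, which was chosen on this contrast. Of the 5 other members tested, Vcp and Nploc4 were higher without overlap, and Nsfl1c, Ubxn6 and Ube4b overlapped. In filtered-air cumulus cells the means of Nploc4 (2.78) and Nsfl1c (2.84) lay below the filter of 3. Nploc4 and Nsfl1c were therefore tested only through the exposed group, where they are higher. The exposed mean of Ube4b (2.99992) lay just below 3. For these genes the overlap and the cumulus exposure p-values support nothing by themselves. Of all genes tested 26.3% did not overlap, 9.29% lower and 17% higher. For Vcp the lowest exposed and the highest control library both round to 6.06. Filtered-air cumulus replicate 3 was the lowest of its group for Vcp, Nploc4 and Nsfl1c, and it also had the highest mean log2 value of 4 hemoglobin genes, 7.64. PM2.5 cumulus replicate 2 was close to it, at 7.3, with Nploc4 at 4.02, Vcp at 6.13 and the highest cumulus Nsfl1c value, 3.39. With the hemoglobin mean as a covariate the Nploc4 difference was 0.97 (limma adjusted p = 0.448) and that of Plaa was -2.03. A fit of 6 libraries cannot decide whether blood content had a part in these values, and that was not tested.

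In oocytes 2 of the 6 members other than Plaa were tested and 0 passed, with 0 at an unadjusted limma p under 0.05. Of all 4080 genes tested 0.221% were called, and 340 had an unadjusted p under 0.05. Vcp differed by 0.12 (SE 0.12, interval -0.16 to 0.39, limma adjusted p = 0.789) and Ube4b by 0.03 (SE 0.11, interval -0.23 to 0.29, adjusted p = 0.950). In blastocysts 4 were tested and 0 passed, again with 0 at an unadjusted p under 0.05, where limma called 0 of all 4834 genes, 0%, and 191 had an unadjusted p under 0.05. Vcp was at -0.16 (SE 0.17), Ubxn6 at -0.27 (SE 0.21), Nploc4 at 0.10 (SE 0.19) and Nsfl1c at 0.30 (SE 0.19), each with a limma adjusted p of 0.998. The Nsfl1c libraries did not overlap between the groups, with 4.01 to 4.46 against 3.83 to 3.91, where 8.52% of genes did not overlap and 3.62% were higher without overlap. In oocytes no member was free of overlap, against 15.3% of genes. The difference between the cumulus and the oocyte exposure effect was tested for 2 members (background 0.395% of 2027 genes) and that between cumulus cells and blastocysts for 4 (0.259% of 3479 genes), and limma called 0 in both, with 0 at an unadjusted p under 0.05. Among all genes 309 of 2027 and 590 of 3479 had an unadjusted p under 0.05 in these contrasts. Vcp, tested in both, gave 0.10 (SE 0.20, limma adjusted p = 0.856) and 0.38 (SE 0.21, adjusted p = 0.356).

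**Figure D3:**
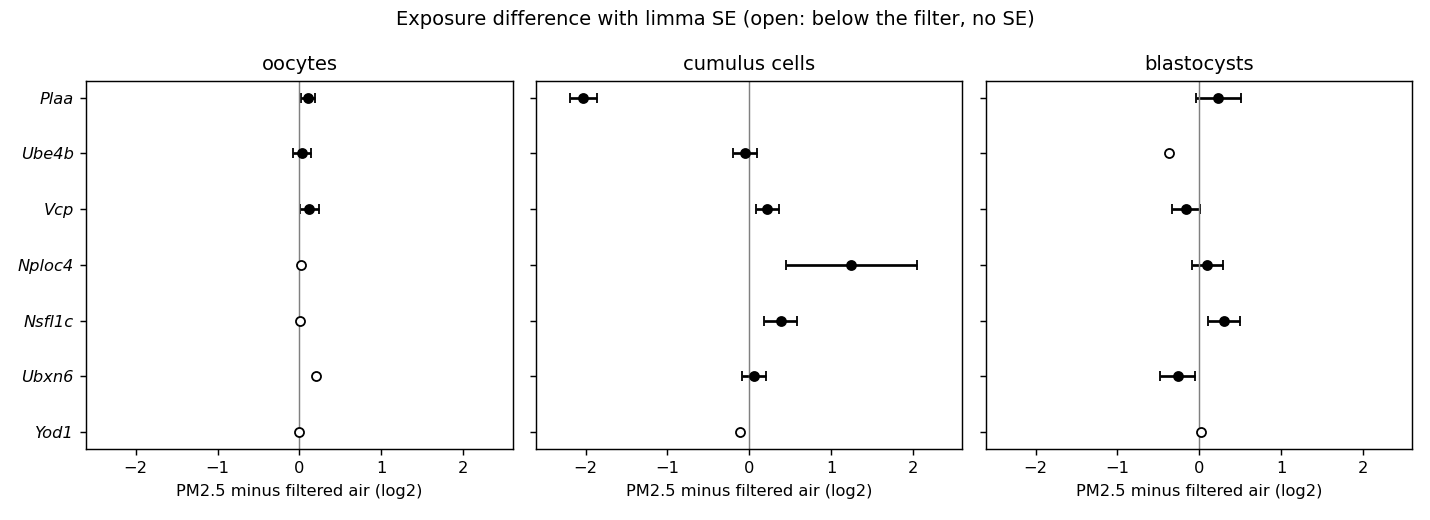
Exposure differences (PM2.5 minus filtered air, log2(x + 1) scale) of each member in oocytes, cumulus cells and blastocysts, with bars of 1 SE from the limma fit and open points for members below the filter. Plaa in cumulus cells lies at -2.03, the other cumulus values lie between -0.11 and 1.24, and the wide bar at 1.24 is Nploc4.

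Summed marker levels of several cell types differed between the exposed and control cumulus libraries, while limma called 0 single markers, with 5 at an unadjusted p under 0.05. Of all 4780 genes tested in cumulus cells, 1114 had such a p-value. Summed over a list on the linear scale of x, the 6 granulosa markers came to 664 to 801 in the PM2.5 group and 470 to 556 in filtered air, with Inha, a subunit of inhibin, carrying the difference (0.93, limma adjusted p = 0.135). The other granulosa markers tested lay between -0.16 (Inhba) and 0.09 (Foxl2), and the list median of 0.06 was below the 0.09 of all genes. The 6 blastocyst markers came to 58.6 to 81.4 and 46.3 to 56.7, with 1 to 3 of the 6 at 0 in each library. Only Krt8 (0.47, limma adjusted p = 0.207) and Krt18 (0.37, adjusted p = 0.187) of this list passed the filter. The 5 stroma and smooth muscle markers came to 4.91 to 6.20 and 2.93 to 3.52, with Dcn at 0 in 2 exposed and 1 control library. The 4 oviduct markers came to 1.55 to 2.83 and 0 to 0.222, with the defining genes Foxj1 and Krt7 at 0 in all 6 libraries. These 4 lists did not overlap between the groups. Of single genes tested 26.3% did not overlap, and no such share was computed for sums. The oocyte list (31.3 to 61.5 against 26.3 to 39.2), the leukocyte list (70.2 to 144 against 76.0 to 110) and the erythroid list (1.44 to 667 against 1.61 to 893) overlapped. Their part in the Plaa value was not tested. The oocyte list, from the tissue with the highest Plaa level, had a median sum of 58.2 in exposed and 32.1 in control cumulus libraries.

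Plaa lies on chromosome 4 at 94565139 to 94603247 on the minus strand of GRCm38.p6. The gene Gm12657 lies inside it on the plus strand, at 94593650 to 94600319, and the Ift74 record begins 18 bases beyond the Plaa record, at 94603266. Whether the counting used strand is not stated, so reads of Plaa and Gm12657 cannot be told apart where they overlap. Gm12657 was at 4.5, 4.35 and 4.34 in exposed and 4.25, 4.04 and 3.96 in control cumulus cells, so it was not lower where Plaa was lower. Its difference was 0.31 (SE 0.14, limma adjusted p = 0.224). Ift74, a gene of transport in cilia, was at 4.19, 3.42 and 3.48 against 3.32, 3.77 and 4.06, a difference of -0.02 (SE 0.27, limma adjusted p = 0.970). Caap1, the neighbour on the other side, had means of 2.03 ± 0.43 (SD, n = 3) and 2.17 ± 0.07 (SD, n = 3) and was below the filter, and Tek was listed at 0 in all 6 cumulus libraries. 

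**Figure D4:**
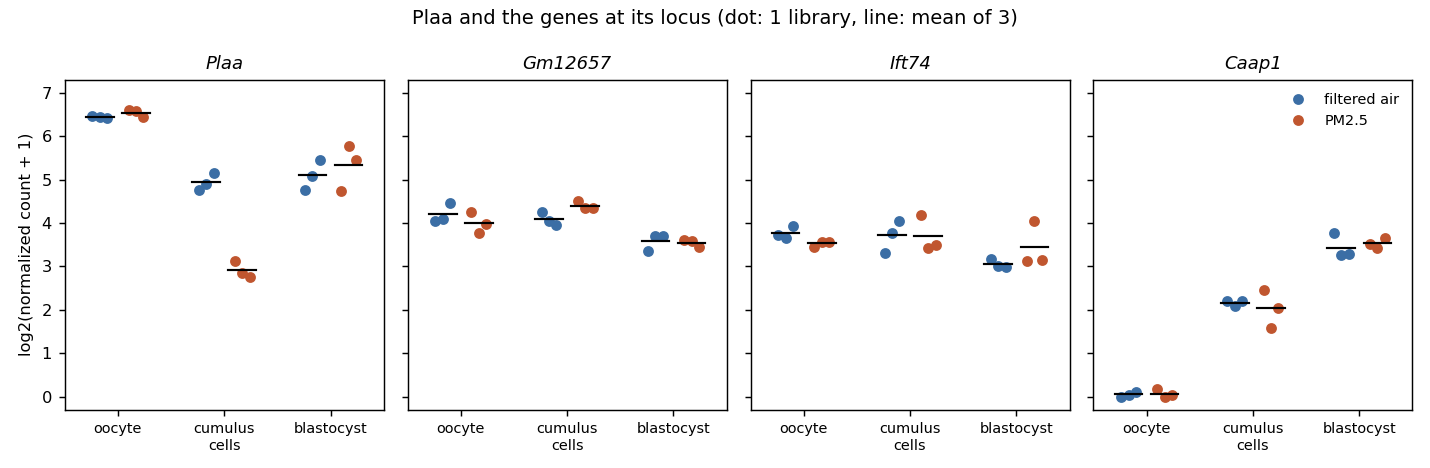
Deposited log2(x + 1) values of Plaa, of Gm12657 inside it and of its neighbours Ift74 and Caap1, with 1 dot per library, a line at the mean of 3 libraries and colour for the exposure group. The exposed and control cumulus means are 2.91 and 4.94 for Plaa, 4.40 and 4.09 for Gm12657 and 3.70 and 3.72 for Ift74.

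Other members also share ground with other genes. Ubxn6 (chromosome 17) overlaps the end of Chaf1a, and Yod1 (chromosome 1) lies inside Pfkfb2 on the opposite strand. Vcp has the near copy Vcp-rs on chromosome X, and reads can be split between them. Vcp-rs had group means of 2.32 and 2.02 in oocytes, 3.66 and 3.44 in cumulus cells and 3.93 and 4.06 in blastocysts (PM2.5 first), the same tissue order as Vcp, so the Vcp values are uncertain to that extent.

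In filtered air most tested genes of ERAD, of ubiquitin supply and of lysosome clearance were lower in oocytes than in cumulus cells, while the other VCP cofactors were split. Genes low in oocytes were tested only through the other tissues, so the counts, medians and p-values below support nothing by themselves. The genes named here were chosen after their values were seen. Of 23 other VCP cofactors found among the deposited genes, 9 were tested, and 4 were higher and 5 lower in oocytes than in cumulus cells. Selenos, which anchors VCP at the endoplasmic reticulum membrane, was 6.19 log2 units lower (difference -6.19, limma adjusted p = 9.64e-11), and Derl1, a channel protein of ERAD, 4.43 lower (-4.43, adjusted p = 1.37e-10). Ubxn1, a ubiquitin-binding UBX protein, differed by -4.97 (limma adjusted p = 7.36e-09) and Ubxn8, which holds VCP at the same membrane, by -3.72 (adjusted p = 2.63e-09). On the side of Ube4b were Ubxn4 (2.41, limma adjusted p = 2.78e-08), an ERAD cofactor, Svip (2.73, adjusted p = 1.91e-07), an inhibitor of ERAD, and Ngly1 (1.45, adjusted p = 1.42e-05), which strips sugars from extracted proteins. Among ERAD genes 1 was higher and 5 lower of 6 tested, among ubiquitin and E1 genes 0 and 5 of 5, and among genes of lysosome damage and its clearance 1 and 8 of 9. Their median differences were -2.32, -2.20 and -4.34, against -0.56 for all genes, of which 35.6% were called higher and 51.5% lower. As for the members, genes low in 1 tissue entered these counts only through the others. Against blastocysts the counts were 3 higher and 6 lower of 9 cofactors, 1 and 5 of 6 ERAD genes, 0 and 5 of 5 ubiquitin genes and 1 and 8 of 9 lysosome genes, where 33.2% of all genes were called higher and 54.6% lower, so the cofactor split lay near the background. Of the phospholipase A2 and prostaglandin genes 2 were tested, with 0 called by limma against cumulus cells and 1 lower against blastocysts. Of the ribosome quality control genes 3 were tested, with 1 higher and 2 lower against cumulus cells and 3 lower against blastocysts.

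Under exposure limma called 0 genes of these lists in any tissue. At an unadjusted p under 0.05 there were 9 of 40 tested in cumulus cells, 3 of 18 in oocytes and 1 of 38 in blastocysts, where all genes gave 1114 of 4780, 340 of 4080 and 191 of 4834. In cumulus cells the medians were 0.14 for 10 cofactors tested of 23, -0.11 for 8 ERAD genes of 14, 0.49 for 5 ubiquitin and E1 genes of 6, 0.21 for 11 lysosome genes of 14, -0.70 for 3 phospholipase A2 and prostaglandin genes of 8 and -0.12 for 3 genes of ribosome quality control and mitochondrial substrates of 7. The median of all genes tested was 0.09. Among the cofactors the lowest p-values were those of Vcpkmt (0.54, SE 0.16, limma adjusted p = 0.185), which methylates VCP, and of Faf1 (-0.45, SE 0.15, adjusted p = 0.185), a UBX cofactor. Among ERAD genes they were those of Ube2j2 (0.33, SE 0.16, limma adjusted p = 0.239), a ubiquitin-conjugating enzyme, and Aup1 (-0.26, SE 0.13, adjusted p = 0.259), which recruits such an enzyme.

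The ubiquitin and E1 genes had a difference above 0 in 5 of 5 tested, none of them called, where 58.7% of all genes were above 0. In blastocysts 5 of the 5 were below 0, where 47.6% of all genes were above 0, and again none was called. Ubb, which encodes ubiquitin as a string of repeats, was at 8.97, 9.21 and 9.26 in exposed and 8.71, 8.60 and 8.60 in control cumulus cells, with no overlap. The difference was 0.51 (SE 0.13, limma adjusted p = 0.176). Lamp2, a protein of the lysosomal membrane, was at 4.83, 4.5 and 4.41 in exposed and 5.04, 5.18 and 5.42 in control cells, also without overlap (-0.64, SE 0.17, limma adjusted p = 0.176).

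Plaa takes its name from phospholipase A2, the enzyme that frees arachidonic acid for prostaglandin synthesis, a path that cumulus cells use at ovulation. Pla2g4a, the cytosolic phospholipase A2, was at 5.52, 4.87 and 4.72 in exposed and 5.80, 5.83 and 5.58 in control cumulus cells (-0.70, SE 0.22, limma adjusted p = 0.185). Ptgs2, the prostaglandin synthase induced in cumulus cells, was at 6.01, 5.51 and 5.58 against 6.14, 6.69 and 6.51 (-0.75, SE 0.19, limma adjusted p = 0.176). All 3 exposed libraries lay below all 3 controls for both genes, and exposed replicate 1 was the nearest to the controls in each. Without that library limma called Ubb higher and Lamp2, Pla2g4a, Ptgs2 and Ltn1 (a ligase of stalled ribosomes) lower, while the number of genes called in the whole table went from 8 to 558. In the fit of all 18 libraries Pla2g4a and Ptgs2 were called, among 103 of 4780 genes, 2.15%. The genes named here were among those with the lowest p-values of their lists. For Ubb, Lamp2, Pla2g4a and Ptgs2 the library left out was the exposed one nearest the controls. Calls gained after such choices support nothing by themselves and are a description. The 9.29% of genes without overlap that were lower in exposed cumulus cells form the background of Lamp2, Pla2g4a and Ptgs2, and the 17% that were higher that of Ubb.

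Likeness to Plaa was measured by Pearson correlation over the 18 libraries for 4031 genes. Genes without a symbol, or with a Gm-number, Rik or digit-first symbol, were then left out, whatever their correlation. Of the genes that remained, the most like Plaa were Rybp (r = 0.941), Cdk8 (0.937), Amd1 (0.935), mt-Tm (0.931) and mt-Tk (0.930). Tissue differences dominate these values, since libraries of 1 tissue share most of their pattern. They were picked for following Plaa, so their high oocyte level and lower exposed cumulus level come from that choice and are a description. The cumulus means were 3.37 and 3.81 for Rybp (a Polycomb partner), 2.85 and 3.27 for Cdk8 (a Mediator kinase), 4.01 and 4.49 for Amd1 (an enzyme of polyamine synthesis), 1.54 and 3.28 for mt-Tm and 3.77 and 4.46 for mt-Tk (mitochondrial transfer RNAs), with the exposed group first. Within the members, Vcp followed Nsfl1c (r = 0.975) and Ubxn6 (r = 0.963), Nsfl1c ran against Ube4b (r = -0.973), and Plaa was less close to Ube4b (r = 0.55).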

How the data were processed

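Oocytes, cumulus cells and blastocysts were lysed and reverse transcribed directly, and the tailed cDNA was amplified and sequenced, per the labels' protocols. The authors deposited log2 values, log2(x + 1) of a normalized count x, for 52550 genes in 18 libraries. FastQC, Cuffnorm, DESeq 1.22.1 and mm10 are named in the submitters' processing notes without roles. For the aligner, annotation and use of strand, a statement was not given in the sources used here. Amplification and unknown depth limit the precision of low values. Differences on this scale understate changes of low genes.

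From these values, limma 3.58.1 in R 4.3.3 (empirical Bayes with a mean-variance trend, two-sided, Benjamini-Hochberg over all genes tested, call at an adjusted p under 0.05) was fitted to the 6 libraries of a tissue, the 9 of an air group or all 18. Genes needed a mean log2 value of 3 and 3 libraries above 0. The text names the 7 members, then from each list some of the 3 genes with the lowest p in the cumulus exposure contrast. It also names the genes beside Plaa and the 5 genes most correlated with it after Gm-number, Rik, digit-first and missing symbols were left out. Overlapping genes and list genes named between tissues were chosen after values were seen. Members and lists were chosen with earlier results of these data known. The fits were tested on simulated data. Alternatives were another pseudocount (0.1), other filters, quantile normalization, a replicate block, a hemoglobin covariate, 1 fit of all libraries and leaving out each library.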

Additional observations from a re-analysis of the deposited data

How the results depend on the processing

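In the exposure contrasts the tested members stayed at 0 calls under each alternative run, the replicate block included. Without a filter the members called became 5 (oocytes against cumulus cells, from 3), 5 (oocytes against blastocysts, from 3) and 4 (cumulus cells against blastocysts, from 2) in filtered air and 3 (cumulus cells against blastocysts, from 1) in PM2.5, because more members entered. Those fits called 48.7%, 48.5%, 35.5% and 35.2% of all genes, in the same order. With a mean of 1 as the filter the filtered-air oocyte against blastocyst count became 5, with 84.2% of all genes called. The PM2.5 cumulus against blastocyst count became 2, with 63.4% called. Quantile normalization took the filtered-air cumulus against blastocyst count to 1, as Vcp (-0.08, limma adjusted p = 0.602) was lost, and leaving out a library gave 1 to 2. It also turned the PM2.5 cumulus minus blastocyst difference of Vcp from -0.06 to 0.18, and the cumulus minus oocyte exposure effect of Vcp from 0.10 to -0.036. The cause was not tested.

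Leaving out 1 library at a time, uncalled differences crossed 0 for Ubxn6 (-0.0037 to 0.15) and Vcp (-0.17 to 0.057) between cumulus cells and blastocysts in PM2.5. They did so for exposure in blastocyst Nploc4 (-0.019 to 0.19), cumulus Ube4b (-0.11 to 0.013), cumulus Ubxn6 (-0.0077 to 0.15) and oocyte Ube4b (-0.027 to 0.091), and for the cumulus minus blastocyst effect of Nsfl1c (-0.083 to 0.25) and the cumulus minus oocyte effect of Vcp (-0.024 to 0.17).

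Genes called in the whole table moved more. In oocytes 9 (0.221%) became 17 (filter at a mean of 1, 0.197%), 5 (no filter, 0.0223%) or 3 (replicate block, 0.0735%). It became 27 (0.662%) in the fit of all 18 libraries and 2 to 12 with 1 library left out. In cumulus cells 8 (0.167%) became 5 (no filter, 0.0224%), 3 (replicate block, 0.0628%) or 103 (all 18 libraries, 2.15%). It became 6 to 558 with 1 library left out and 4 (0.0837%) with the hemoglobin covariate. In no pair of groups were all 3 same-number correlations over 0.1 (from -0.24 to -0.16 between cumulus groups up to 0.062 to 0.198 between filtered-air cumulus cells and blastocysts), so the block pairs libraries by number only. In blastocysts 0 became at most 4. In filtered air 3515 genes (87.1% of 4035) were called between oocytes and cumulus cells. With more genes tested the count was 9076 (mean of 1, 83.4% of 10887) or 13324 (no filter, 48.7% of 27380). In the other tissue contrasts the counts likewise grew while the shares fell. The cumulus minus oocyte exposure effect went from 8 genes to 2 (quantile) or 1 (block). Under quantile normalization Plaa, as a description, had oocyte minus blastocyst 1.76 in filtered air and oocyte minus cumulus 4.11 in PM2.5. Depth is unknown, so the counting error of low values cannot be estimated.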
